A study of Mus musculus with 6 samples.

Results

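The replication-dependent histone genes studied here were the 67 protein-coding genes of the GENCODE M21 mouse annotation (build GRCm38) whose symbols begin with Hist1h, Hist2h, Hist3h or Hist4h, out of 55450 annotated genes. They encode 6 linker histones H1, 18 H2A, 18 H2B, 12 H3 and 13 H4 genes. The Hist1 cluster held 54 of them within chr13:21715763-23934851. The Hist2 cluster held 10 within chr3:96219865-96270132, the Hist3 cluster 2 within chr11:58948920-58956830, and Hist4 was the single gene Hist4h4 at chr6:136801553-136804415. Another 3 genes with such symbols are annotated as pseudogenes and were left out. RNA came from whole mouse brain of 2 genotypes, wild type (WT) and a knockout (KO) of TRMT1L, a homologue of tRNA-modifying methyltransferases, with 3 libraries each that the submitters call biological triplicates. The total RNA was selected for molecules longer than 200 bp and sequenced with the Illumina TruSeq Total RNA chemistry. The labels give no age, sex, strain or litter, and do not say how the knockout was made or in which cells it acts, so every group is known only as whole brain of 1 of these genotypes.

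Replication-dependent histone genes supply the proteins that package newly made DNA and are transcribed mainly in S phase. H2A with H2B and H3 with H4 form the nucleosome core, and H1 binds the linker DNA between nucleosomes. Their transcripts normally carry no poly(A) tail and end in a stem-loop, which is bound by the stem-loop binding protein Slbp and cut with the help of the U7 small nuclear RNA. In differentiated cells some of these genes also give polyadenylated transcripts. Most neurons of the adult brain no longer divide, while oligodendrocyte precursors and the neurogenic niches keep dividing cells.

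The stem-loop is the sequence feature that sets these transcripts apart, so examples are shown from the GENCODE M21 transcripts, written as DNA from 5′ to 3′, with the 16 bases of the stem and loop in capitals and 5 flanking bases on each side. They cover the gene with the highest level per kb of GENCODE exon in the H1, H2A, H2B and H4 classes, and the forms of the sequence carried by more than 1 gene.
Hist1h1c: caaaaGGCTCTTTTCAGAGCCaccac
Hist3h2ba: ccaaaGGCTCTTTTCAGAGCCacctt
Hist2h2ac: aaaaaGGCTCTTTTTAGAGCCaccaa
Hist1h3e: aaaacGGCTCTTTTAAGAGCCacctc
Hist1h4d: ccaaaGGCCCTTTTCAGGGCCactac
Hist1h4b: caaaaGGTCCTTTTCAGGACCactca
Hist2h4: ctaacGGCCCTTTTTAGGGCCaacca
In order, the capitals lie at chr13:23739512-23739527 (plus strand), chr11:58949349-58949364 (plus), chr3:96220418-96220433 (minus), chr13:23561903-23561918 (minus), chr13:23581950-23581965 (plus), chr13:23757366-23757381 (plus) and chr3:96262939-96262954 (minus), all on GRCm38 and all 3′ of the stop codon.

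A window of this form was found within 150 bases after the stop codon in 46 of the 67 histone genes (68.7%), against 184 of 21017 other protein-coding genes (0.875%). All 46 had 0 unpaired positions in the 6-base arms. The same 16 bases, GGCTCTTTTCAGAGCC, stood in 26 genes of the H1, H2A, H2B and H3 classes, and in no H4 gene. The 12 H4 genes with a match had forms of their own, led by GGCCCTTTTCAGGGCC in 7 of them. Of the 21 genes without a match, 15 have fewer than 16 annotated bases after the stop codon, so that their models end before a stem-loop could be seen. The other 6 were Hist1h1a, Hist1h2bc, Hist1h2bq, Hist1h2br, Hist2h2be and Hist2h3b. A stem-loop outside their annotated models would not be seen either. Hist1h1a has 48 annotated bases after the stop codon, and the only model of Hist1h2bc is spliced.

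Within the H2A, H2B, H3 and H4 classes the coding sequences are mostly close copies. This bears on many of the counts below, because reads that fit more than 1 place are not in the deposited gene counts. The 13 H4 genes encode 1 protein from 12 distinct coding sequences that are 85.3% to 100% identical. The 12 H3 genes encode 3 proteins, the 18 H2A genes 9, the 18 H2B genes 12 and the 6 H1 genes 6. The share of 50-base exonic windows found in no other annotated transcript had a median of 45.9% over the 67 genes. It was highest for H1 (98.9%), then H4 (60.5%), H2B (53.1%) and H3 (38.0%), and lowest for H2A (27.0%). Levels of genes with a low share are uncertain, and they are given with that share where it is under 50%.

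The counts rested on 31201119 to 36145961 reads in genes per library on the strand used, which held 94.6% to 94.8% of the gene reads of both strands. Trmt1l checked the labels, with 1279, 1034 and 1158 counts in WT libraries 1, 2 and 3 against 93, 101 and 106 in the KO libraries (log2 fold change -3.58, SE 0.0813, adjusted p = 6.95e-10, edgeR quasi-likelihood test with Benjamini-Hochberg adjustment). The brain label was checked on marker genes: the 5 neuronal markers summed to 3729 to 3994 CPM (counts scaled to library size) per library, and of 4 testis germ cell markers 3 were at 0 in every library.

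Among the 67 genes, which leave out the replication-independent variants, H4 transcripts made up the largest part of the counted signal. Summed over genes, H4 took 49.8% of the CPM of the 67 genes on average (47.4% to 52.7% across the 6 libraries). H1 took 19.2%, H2B 17.1%, H3 7.42% and H2A 6.54%. After division by exon length, the H4 share was 59.1% ± 1.75 (SD, n = 6), H2B 15.1% ± 1.27, H1 10.5% ± 1.66, H3 9.27% ± 0.585 and H2A 6.01% ± 0.316. H4 was the largest class in all 6 libraries on both scales. Annotated exons of 12 unspliced genes are at least 2 times as long as the RefSeq gene, so levels per kilobase depend on the annotation used. Hist2h4 stood at 8.59 CPM per kb of GENCODE exon, below Hist1h4h at 27.7, but at 36.5 CPM per kb of RefSeq length, above Hist1h4h at 30.0.

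Levels were very unequal within a class. Enough reads for a test were present for 43 of the 67 genes. Of the other 24, 5 had 0 counts in all 6 libraries: Hist1h2aa, Hist1h2ah, Hist1h2ao, Hist2h2aa1 and Hist2h3c1. Hist2h3c1 lies wholly, and Hist2h2aa1 largely, under the exons of another annotated gene on the same strand, where reads count for neither. Hist1h2ah and Hist1h2ao have 7.87% and 6.50% of their windows unique, so a count of 0 there does not show that the transcript is absent. The genes known for their testis forms were near 0: the H1 gene Hist1h1t had 8 counts over 6 libraries, the H2B gene Hist1h2ba had 2, and Hist1h2aa is among the genes at 0.

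**Figure D1:**
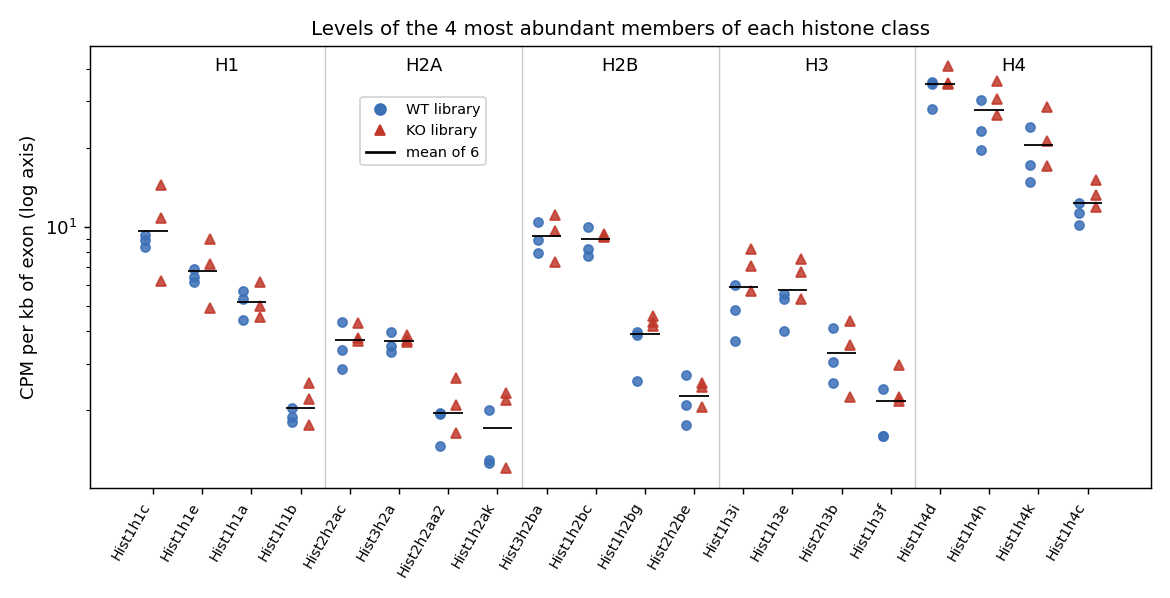
CPM per kilobase of merged exon (vertical, log axis) for the 4 genes of each class highest on this scale; circles are WT libraries, triangles KO libraries and black lines the mean of 6. The means of the 4 H4 genes, 12.3 to 34.9, lie above the mean of every gene shown of the other classes. Single libraries overlap: Hist1h1c in KO library 3, at 14.5, lies above Hist1h4c in WT library 1, at 12.4.

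Of the 6 H1 genes among the 67, Hist1h1c (chr13:23738808-23740367) was the most abundant, with a mean of 9.67 CPM per kb. Its CPM was 13.1, 13.9 and 14.5 in WT libraries 1, 2 and 3, and 16.8, 9.68 and 22.5 in KO libraries 1, 2 and 3. The WT libraries were close together and the KO libraries lay on both sides of them. Hist1h1e followed at 6.77 CPM per kb, with 12.4, 13.3 and 11.9 CPM in WT and 13.9, 9.51 and 17.4 in KO, and shares 496 bp of exon with neighbours on its strand. Hist1h1a, at 5.19 CPM per kb, had 4.23, 3.92 and 3.28 CPM in WT and 3.71, 3.36 and 4.57 in KO. Hist1h1b, at 2.04 CPM per kb, had 1.51, 1.34 and 1.40 CPM in WT and 1.64, 1.31 and 1.88 in KO. The order depends on the length used. Hist1h1d stood at 0.853 CPM per kb on 7425 bp of GENCODE exon, but at 8.16 on its RefSeq length of 776 bp. On RefSeq lengths Hist1h1a stood at 5.16 and Hist1h1b at 1.91. The groups overlapped for all of these linker genes. All 5 tested H1 genes were highest in KO library 3, and 4 of the 5 were lowest in KO library 2. H1f0, the linker variant of non-dividing cells and not one of the 67 genes, had the same extremes, with 62.0, 60.1 and 57.2 CPM in WT and 62.0, 48.7 and 71.4 in KO.

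Among H2A genes, which encode a partner of the H2A-H2B dimer, the leading ones sat outside the Hist1 cluster. Hist2h2ac (chr3:96220361-96220880), at 3.72 CPM per kb with 45.0% of its windows unique, had 1.76, 1.50 and 2.25 CPM in WT and 1.96, 1.90 and 2.24 in KO. Hist3h2a, at 3.68 CPM per kb, had 7.56, 7.15 and 8.54 CPM in WT and 7.83, 7.96 and 8.30 in KO, and shares 708 bp with Trim17 on its strand. Neither gene separated the genotypes. Hist2h2aa2 was counted at 1.95 CPM per kb although none of its windows is unique among transcripts, so its 0.769, 1.02 and 1.03 CPM in WT and 0.863, 1.40 and 1.11 in KO cannot be assigned to it with certainty. Hist1h2ak, at 1.72 CPM per kb and 43.0% unique, had 0.495, 0.510 and 0.790 CPM in WT and 0.863, 0.475 and 0.913 in KO. Both again overlapped between groups.

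Per kb of GENCODE exon, the H2B gene with the highest level was Hist3h2ba (chr11:58948920-58949533), at 9.22 CPM per kb, which had 5.47, 4.88 and 6.41 CPM in WT and 5.93, 4.52 and 6.78 in KO. Hist1h2bc followed at 8.95 CPM per kb, with 8.93, 9.47 and 11.5 CPM in WT and 10.7, 10.6 and 10.8 in KO. The 2 genes were close in level and overlapped between genotypes. Hist1h2bg, at 3.92 CPM per kb, had 2.39, 1.59 and 2.46 CPM in WT and 2.68, 2.58 and 2.82 in KO, so that every KO library stood above every WT library. Hist2h2be, at 2.28 CPM per kb, had 5.50, 4.59 and 7.17 CPM in WT and 5.41, 6.45 and 6.67 in KO, and overlapped.

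Per kb, H3 genes were led by Hist1h3i and Hist1h3e, at 5.91 and 5.75 CPM per kb, both with few unique windows (12.4% and 26.6%). Hist1h3i (chr13:21782960-21783370) had 1.51, 1.98 and 2.46 CPM in WT and 2.33, 2.91 and 3.38 in KO, and the highest WT library lay above the lowest KO library. Hist1h3e had 4.45, 3.35 and 4.62 CPM in WT and 5.64, 4.46 and 6.31 in KO, with KO library 2 inside the WT range. Hist2h3b, at 3.31 CPM per kb with no unique window, had 1.24, 2.01 and 1.49 CPM in WT and 1.73, 1.10 and 2.13 in KO. Hist1h3f, at 2.16 CPM per kb, had 2.01, 2.01 and 3.04 CPM in WT and 2.73, 2.82 and 3.76 in KO. Both of these genes overlapped between genotypes. For comparison, the replication-independent H3.3 genes H3f3b and H3f3a stood at 56.9 and 18.4 CPM per kb, while the 12 H3 genes summed to 21.8 CPM per kb without the reads that fit several places.

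H4 genes give the same protein, yet their levels ranged from 34.9 CPM per kb for Hist1h4d to 0.0242 for Hist1h4m, which had 2 counts in all and has 10.2% of its windows unique. Hist1h4d (chr13:23581598-23582735) had 32.0, 40.5 and 39.6 CPM in WT and 39.6, 40.0 and 46.6 in KO. Hist1h4h, at 27.7 CPM per kb, had 9.23, 10.9 and 14.3 CPM in WT and 12.5, 14.4 and 16.9 in KO. WT library 1 was the lowest and KO library 3 the highest for both, and the groups overlapped. Hist1h4k, at 20.5 CPM per kb and 28.5% unique, had 4.62, 5.36 and 7.51 CPM in WT and 6.62, 5.32 and 8.94 in KO. Hist1h4c, at 12.3 CPM per kb, had 10.1, 8.33 and 9.24 CPM in WT and 10.8, 9.74 and 12.4 in KO. These also overlapped. KO library 3 was the highest library for 9 of the 12 tested H4 genes and WT library 1 the lowest for 8.

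Many H2A and H2B genes stand head to head with their start sites close together, so the 12 such pairs within 1000 bases show how far neighbours on 1 shared upstream stretch differ. In 7 pairs at least 1 gene passed the count filter, and 4 of these passed through the H2B gene alone, which fixes the direction of their gap. Of the 3 pairs with both genes tested, the H2B gene had the higher level per kb in 2. Hist1h2bn and Hist1h2ak stood at 2.07 and 1.72 CPM per kb, a ratio of 1.21 that became 3.84 per kb of unique windows, which make up 13.6% and 43.0% of their windows. The widest gaps were picked after the values were seen. Hist1h2bg stood at 3.92 CPM per kb and its partner Hist1h2ae at 0.0549, a ratio of 71.4 on 500 and 8 counts. Hist1h2bc stood at 8.95 CPM per kb and Hist1h2ac at 0.313, a ratio of 28.6 on 2123 and 160 counts. That ratio depends on the length used: it was 36.3 per kb of unique windows, while Hist1h2ac alone stood at 1.60 CPM per kb on its RefSeq length of 487 bp in place of 2482 bp of GENCODE exon. Their annotated starts are 251 bases apart. Hist2h2ac and Hist2h2be went the other way, at 3.72 and 2.28 CPM per kb.

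**Figure D2:**
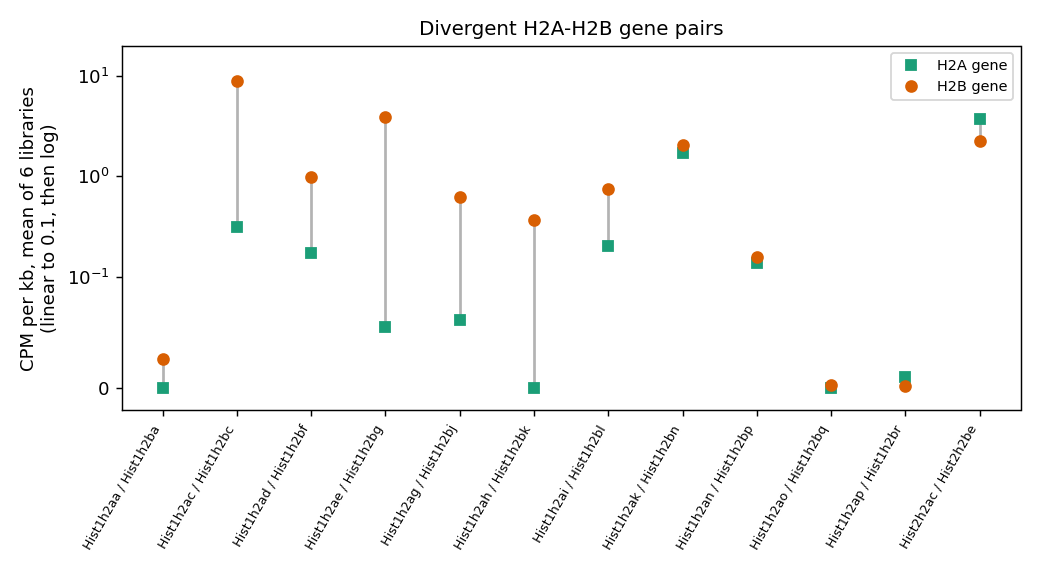
Mean CPM per kilobase over 6 libraries (vertical, linear to 0.1 and log above) of the 2 genes of each head-to-head H2A-H2B pair; squares are H2A genes, circles H2B genes and grey lines join a pair. The gap is widest for Hist1h2ae with Hist1h2bg (0.0549 and 3.92), and Hist2h2ac lies above Hist2h2be.

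Upstream sequence was read from the RefSeq promoter windows of build GRCm38.p6, which run from 250 bases before to 50 after the start and were present for 62 of the 67 genes as 63 windows. The 250 upstream bases are shown for Hist1h2ac, since they cover the stretch shared with Hist1h2bc, and for Hist1h4d and Hist1h4h, the H4 genes with the highest levels per kb of GENCODE exon. Capitals mark the TATA box letters TATAAA (or the reverse complement, TTTATA), the box CCAAT (or, on the other strand, ATTGG) and the octamer ATGCAAAT (or, on the other strand, ATTTGCAT). None of these words contains another.
Hist1h2ac: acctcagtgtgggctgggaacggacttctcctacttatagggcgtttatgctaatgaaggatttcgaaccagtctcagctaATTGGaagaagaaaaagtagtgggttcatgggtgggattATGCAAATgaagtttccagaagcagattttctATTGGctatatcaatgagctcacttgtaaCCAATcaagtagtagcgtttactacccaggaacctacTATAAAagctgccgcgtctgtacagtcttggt
Hist1h4d: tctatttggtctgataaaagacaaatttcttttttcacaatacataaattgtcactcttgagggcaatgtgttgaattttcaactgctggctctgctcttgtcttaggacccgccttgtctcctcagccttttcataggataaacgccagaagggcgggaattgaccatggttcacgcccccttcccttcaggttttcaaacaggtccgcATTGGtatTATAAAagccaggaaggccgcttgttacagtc
Hist1h4h: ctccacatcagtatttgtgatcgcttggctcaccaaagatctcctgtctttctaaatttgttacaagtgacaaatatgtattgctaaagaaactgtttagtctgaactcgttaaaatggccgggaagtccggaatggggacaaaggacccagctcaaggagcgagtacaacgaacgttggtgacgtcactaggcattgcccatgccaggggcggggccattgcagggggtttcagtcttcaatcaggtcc
They lie at chr13:23683960-23684209 (minus strand), chr13:23581318-23581567 (plus) and chr13:23530794-23531043 (plus).

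Searched on both strands, TATAAA stood in 55.6% of the histone windows against 13.6% of all 32851 windows of the table. CCAAT stood in 85.7% against 37.4%. All 51 windows of H1, H2A, H2B and H3 genes held CCAAT, while 3 of 12 H4 windows did, Hist1h4d among them. The octamer ATGCAAAT stood in 22.2% against 1.74%, in 7 of 18 H2A and 7 of 17 H2B windows and in no window of the other classes. Windows of a head-to-head pair can overlap, so the same match can be counted for both genes, as for Hist1h2aa and Hist1h2ba. None of the letters searched for was in the window of Hist1h4h. A match or its absence is a description of these windows only.

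Between genotypes no histone gene passed the test. Of the 43 tested genes, 0 had an adjusted p under 0.05 in the edgeR quasi-likelihood test with Benjamini-Hochberg adjustment over 21237 genes, where 0.00942% of all genes tested did. The lowest adjusted p was 0.589. DESeq2 and limma-voom gave 0 as well, with 4 and 10 genes at an unadjusted p under 0.05, all higher in KO. At an unadjusted p under 0.05, 9 of the 43 were higher in KO, beside 4.54% of all genes tested, and 0 were lower, beside 3.38%. The log2 fold change was above 0 in 40 of the 43, beside 50.1% of all genes, and its median was 0.25, beside 0.00013 for all genes tested. All KO libraries stood above all WT libraries for 7 of the 43, beside 7.46% of all genes, and below them for 0, beside 6.97%. In RNA from whole tissue, more cells with a transcript and more RNA per cell cannot be told apart, and a p that misses the threshold does not show equal levels.

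**Figure D3:**
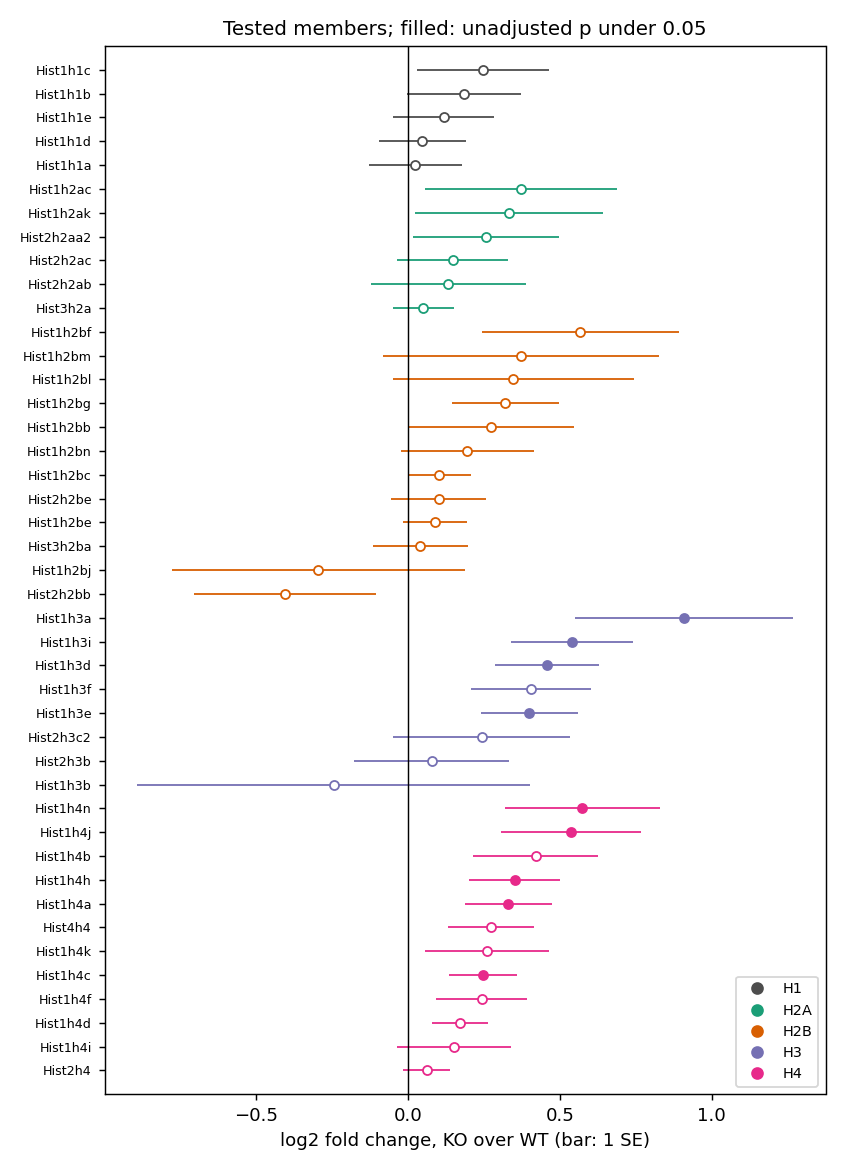
Log2 fold change of KO over WT (horizontal) with 1 SE for the 43 tested histone genes, coloured by class; filled points have an unadjusted p under 0.05. Points lie right of 0 for 40 genes, and all 9 filled points belong to H3 and H4 genes.

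The 9 genes with an unadjusted p under 0.05 were H3 and H4 genes of the Hist1 cluster: Hist1h3a, Hist1h3d, Hist1h3e, Hist1h3i, Hist1h4a, Hist1h4c, Hist1h4h, Hist1h4j and Hist1h4n. The smallest p was that of Hist1h3i, 0.54 higher on the log2 scale (SE 0.202, adjusted p = 0.589, edgeR quasi-likelihood test). Hist1h3d had 1.54, 1.50 and 1.85 CPM in WT and 1.96, 2.53 and 2.24 in KO, so the groups did not overlap (log2 difference 0.46, SE 0.172, adjusted p = 0.589 in the same edgeR test). Hist1h3a was near the count filter, with 0.220, 0.223 and 0.304 CPM in WT and 0.403, 0.654 and 0.360 in KO (0.91, SE 0.358, adjusted p = 0.600). Its 74 counts over 6 libraries limit that value. Hist1h3e differed by 0.40 (SE 0.160) and Hist1h4h by 0.35 (SE 0.150). By class, the median log2 fold change was 0.40 for the 8 tested H3 genes and 0.27 for the 12 H4 genes, and 0.20 for H2A (6), 0.15 for H2B (12) and 0.12 for H1 (5). The differences between classes were not tested.

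The 3 genes with a fold change below 0 were low ones. Hist2h2bb had 0.495, 0.574 and 0.456 CPM in WT and 0.489, 0.297 and 0.360 in KO (-0.40, SE 0.299), with no unique window. Hist1h2bj had 0.330, 0.128 and 0.486 CPM in WT and 0.374, 0.149 and 0.249 in KO (-0.29, SE 0.483), with 40.6% of its windows unique. Hist1h3b had 0.440, 0.128 and 0.304 CPM in WT and 0.0863, 0.564 and 0.111 in KO (-0.24, SE 0.645), with 39.6% unique. In each the groups overlapped and the SE was large beside the difference.

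**Figure D4:**
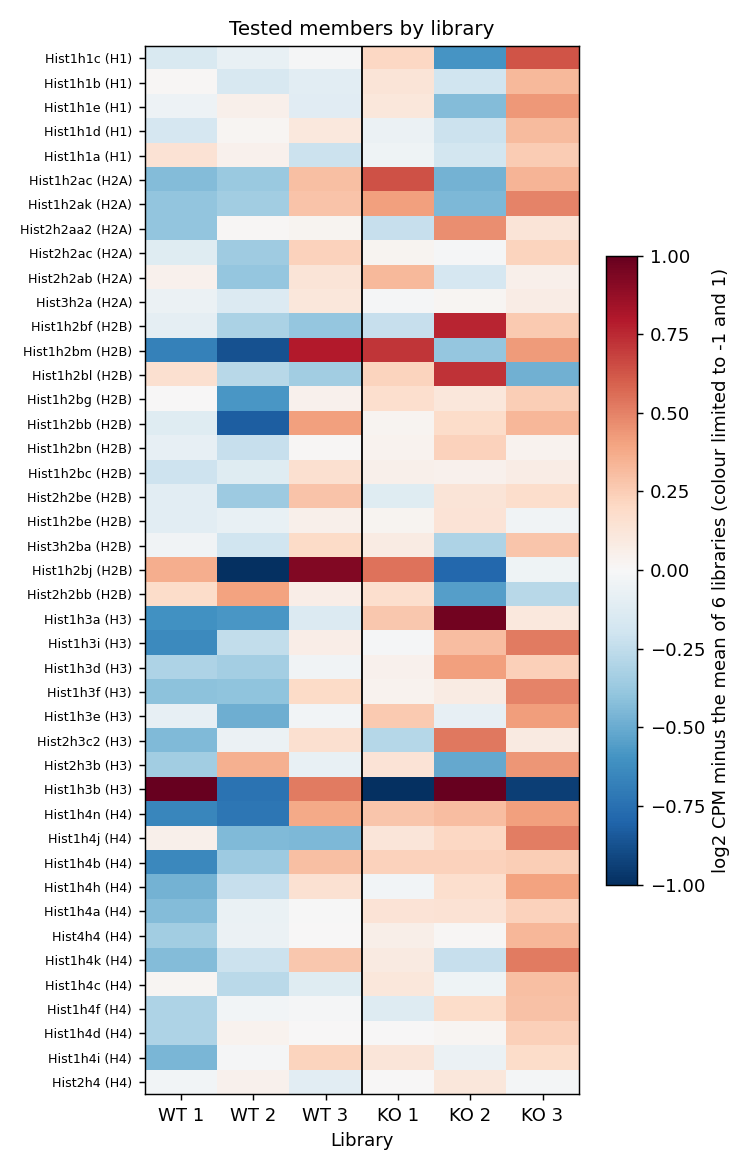
Log2 CPM of the 43 tested histone genes in each library relative to the mean of the 6 libraries (colour, limited to -1 and 1), with WT libraries left of the line and KO libraries right. KO library 3 is the highest library for 21 of the 43 genes, and WT libraries 1 and 2 are the lowest for 15 and 13.

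Class totals also include the genes under the filter. H3 summed to 12.3, 12.2 and 15.8 CPM in WT libraries 1, 2 and 3 and to 15.9, 16.5 and 19.9 in the KO libraries, a mean of 13.4 ± 2.06 against 17.5 ± 2.19 (SD, n = 3 each; ratio 1.30). H4 summed to 84.1, 96.7 and 104.26 CPM in WT and to 104.35, 105.8 and 122.3 in KO, 95.0 ± 10.2 against 111 ± 9.96 (ratio 1.17). All KO libraries lay above all WT libraries for both classes, by a margin of under 1 CPM. H2A (12.1, 11.7 and 14.7 in WT, 14.1, 13.6 and 14.8 in KO) and H2B (32.2, 30.0 and 39.3 in WT, 35.9, 35.7 and 37.8 in KO) overlapped. H1 summed to 37.8 ± 0.987 CPM in WT and 41.9 ± 12.5 in KO, with KO library 2 at 29.3 and KO library 3 at 54.3. The sum over all 67 genes was 193 ± 17.5 CPM in WT and 221 ± 25.1 in KO, and overlapped.

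**Figure D5:**
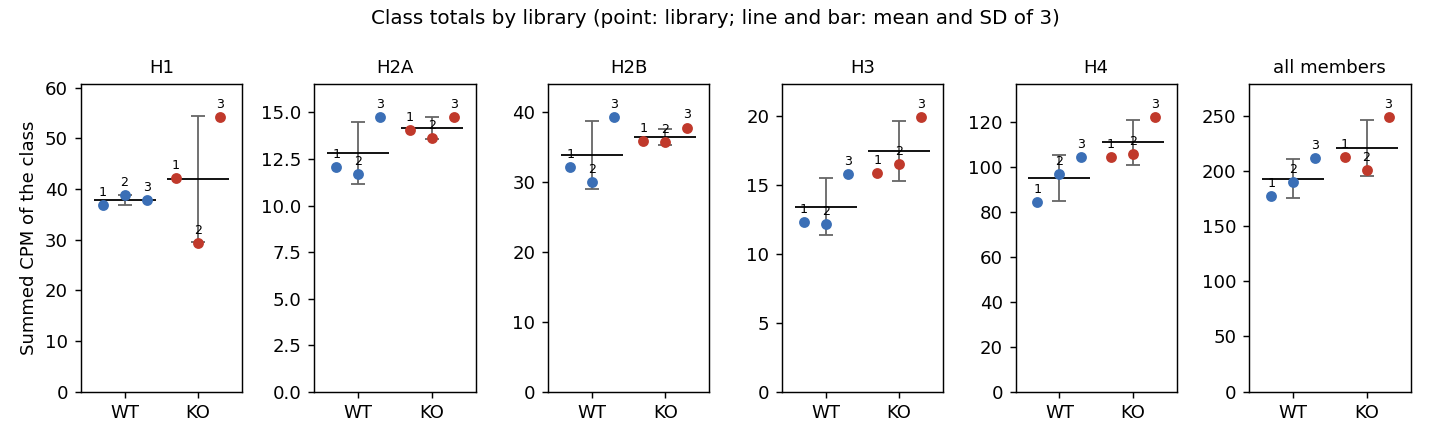
Summed CPM (vertical, from 0) of all genes of each class by genotype; numbered points are libraries, lines and bars the mean and SD of 3. H3 and H4 are higher in each KO library than in any WT library, and the H1 points of KO spread from 29.3 to 54.3.

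Several library properties moved with these values, and apart from the measurements given their part was not tested. The share of mapped reads that fit several places was 5.16%, 4.61% and 4.99% in WT and 5.59%, 5.25% and 5.60% in KO, higher in every KO library, and such reads are absent from the counts of near-identical histone genes. The share of mapped reads that fit several genes was 0.791%, 0.784% and 0.808% in WT and 0.876%, 0.863% and 0.909% in KO, also higher in every KO library, and such reads are absent from exons that genes share. The median GC content was 56.2% for the tested histone genes and 48.5% for all genes tested. With a GC offset per library the median log2 fold change was 0.15, 37 of the 43 genes were higher and 6 had an unadjusted p under 0.05, 5 of them among the 9 above. Among the 26 tested genes with at least 50% unique windows, 26 were higher and 6 had an unadjusted p under 0.05. Without KO library 3 only 2 genes, Hist1h3a and Hist1h3d, kept an unadjusted p under 0.05, and the median was 0.15; without WT library 1, 3 of the 9 kept it, and without WT library 2, 2 of the 9. Of the cell type marker lists, the summed level of 4 astrocyte, 4 oligodendrocyte, 3 oligodendrocyte precursor, 4 microglia, 3 neuroblast and 4 blood markers overlapped between genotypes, while the liver list (Alb, Apoa1 and Ttr, the last also made by the choroid plexus) summed to 264 to 317 CPM in WT and 321 to 384 in KO.

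No factor that makes or processes histone transcripts passed the test. Of 25 genes listed, 24 were tested, 0 passed the adjusted threshold in the edgeR test, 3 had an unadjusted p under 0.05, all higher in KO, beside 4.54% of all genes tested, and the median log2 fold change was 0.03. Slbp, the stem-loop binding protein, had 15.1, 15.0 and 15.4 CPM in WT and 16.8, 14.6 and 14.7 in KO (0.02, SE 0.0789). Npat, the coactivator of histone gene transcription, had 50.7, 52.2 and 49.3 CPM in WT and 50.9, 49.4 and 45.8 in KO (-0.06, SE 0.0564). Both overlapped between genotypes. The lowest p values were those of Upf1, a helicase used in histone mRNA decay, at 78.1, 76.7 and 76.8 CPM in WT and 81.4, 94.2 and 86.5 in KO (0.18, SE 0.0568, adjusted p = 0.576, edgeR), and Cstf2t, a cleavage factor paralogue, at 78.7, 77.4 and 79.9 CPM in WT and 89.2, 89.6 and 80.9 in KO (0.14, SE 0.0524, adjusted p = 0.593, edgeR). Neither passed the adjusted threshold, although all KO libraries stood above WT for both. They were the only 2 of the 24 tested genes with that order, beside 7.46% of all genes tested. Dhx36 was the 1 gene with all KO libraries below WT, beside 6.97%. Rnu7, the U7 RNA, was listed at 0 in all 6 libraries, and RNA not longer than 200 bp had been removed before library making.

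Replication-independent variants replace canonical histones outside S phase, and 11 of them were listed, all with enough reads for the test. All 11 had a log2 fold change above 0, beside 50.1% of all genes tested. In the edgeR test 0 passed the adjusted threshold and 2 had an unadjusted p under 0.05 and were higher in KO, beside 4.54% of all genes tested, and the median log2 fold change was 0.14. H2afz, which encodes H2A.Z, had 39.6, 39.6 and 41.1 CPM in WT and 48.1, 43.1 and 43.2 in KO (0.16, SE 0.0590, adjusted p = 0.581, edgeR). H2afy, which encodes macroH2A1, had 59.3, 59.4 and 57.9 CPM in WT and 62.3, 66.5 and 65.1 in KO (0.13, SE 0.0489, adjusted p = 0.580, edgeR). In both, all KO libraries were above all WT libraries. That order held for 4 of the 11 variants, beside 7.46% of all genes tested, and the reverse for 0, beside 6.97%. The H3.3 genes H3f3a (0.07, SE 0.0489) and H3f3b (0.04, SE 0.0753) and the linker variant H1f0 (0.02, SE 0.106) overlapped between genotypes.

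No histone chaperone and no proliferation gene passed the test either. Of 18 chaperones tested, 0 had an unadjusted or adjusted p under 0.05 in the edgeR test, beside 4.54% higher and 3.38% lower of all genes tested at the unadjusted threshold, with a median log2 fold change of 0.01. The nearest were Atrx, a chromatin remodeller that places H3.3, at 425, 410 and 451 CPM in WT and 404, 412 and 378 in KO (-0.11, SE 0.0485), and Ubn1, a subunit of the HIRA chaperone complex, at 78.2, 75.4 and 79.5 CPM in WT and 83.8, 89.3 and 77.3 in KO (0.10, SE 0.0578). Both overlapped. Of 20 S-phase and proliferation genes tested, 0 passed the adjusted threshold and 1 had an unadjusted p under 0.05 and was lower in KO, beside 3.38% of all genes tested. The log2 fold change was above 0 in 11 of the 20, with a median of 0.04. The gene with the lowest p was Mki67, a marker of cycling cells, at 4.37, 3.03 and 3.89 CPM in WT and 2.22, 2.55 and 2.63 in KO, lower in every KO library (-0.61, SE 0.161, adjusted p = 0.576, edgeR). Top2a, the topoisomerase of dividing cells, had 2.03, 1.50 and 2.07 CPM in WT and 1.61, 1.16 and 1.63 in KO (-0.35, SE 0.200), and overlapped. Mki67 was the 1 gene of the 20 with all KO libraries below all WT, beside 6.97% of all genes tested. The reverse order held for 2 of the 20, beside 7.46%.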

How the data were processed

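Total RNA of whole mouse brain was measured in 3 WT and 3 KO libraries. The authors deposited raw gene counts on both strands for each library, and the column on the strand that held nearly all gene reads was used. Reads were trimmed with cutadapt 1.9.1 and aligned with STAR 2.7.0f, per the submitters' processing notes. The genome build is not given in the sources used here, but all 55450 gene IDs match GENCODE M21. Reads that fit no gene (48.6% to 52.2% of mapped reads), several genes or several places are kept out of library sizes and tests.

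Counts were filtered with filterByExpr, scaled by TMM and tested with the edgeR 4.0.16 quasi-likelihood test on genotype alone (R 4.3.3, Benjamini-Hochberg over all genes tested, threshold 0.05). CPM uses TMM library sizes, and CPM per kb the merged GENCODE exons. The test was also run on simulated independent counts. These held no GC or single-library shift, so they cannot show how the test behaves under the library differences given above. Window uniqueness (50 bases) was read among annotated transcripts on either strand, not the genome. Stem-loops needed GG at the start, CC at the end, arms of 6 bases with at most 1 unpaired position, and a loop of 4 with T at its positions 1 and 3.

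Alternatives were the unstranded counts, other scalings and filters (no filter, mean count of at least 50), DESeq2 1.42.0, limma 3.58.1 voom, a newer edgeR setting, a GC offset, a replicate block, other lengths and leaving out each library. The genes and lists were chosen with earlier results of these data known. The text names, by rule, the 4 genes per class with the highest CPM per kb, the 4 tested genes with the smallest p in each direction (3 existed below 0), Slbp, Npat, H3f3a, H3f3b, H2afz, H1f0 and the 2 smallest p of each list. Other names were chosen after their values were seen.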

Additional observations from a re-analysis of the deposited data

How the results depend on the processing

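The adjusted threshold was passed by 0 histone genes under every alternative but 1. With no count filter Hist1h4h passed (1 gene), 14 histone genes had an unadjusted p under 0.05 and 1 pathway gene passed, Mki67. The number higher in KO at an unadjusted p under 0.05 was 5 with a mean count of at least 50 (28 tested, all 28 higher), 4 with the DESeq2 Wald test, 6 with the GC offset and 2 to 12 when 1 library was left out, lowest without KO library 3. The number lower was 0 to 1, the 1 being Hist1h3b without KO library 2. Deviations of same-numbered WT and KO libraries were hardly correlated (0.04, -0.03 and -0.06), which cannot show whether the samples were paired. With a replicate block 11 genes had an unadjusted p under 0.05, 8 of the 9 among them, and 0 passed. The median log2 fold change stayed between 0.14 and 0.32. The H4 share per kb was 57.0% on unique windows and 64.1% on RefSeq lengths, an alternative added after seeing the data. The log2 ratio of the H1 totals was 0.15, -0.08 without KO library 3 and 0.35 without KO library 2.

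Directions reversed in 30 of 651 gene values, and the cause was not tested. With the GC offset, and with it plus the replicate block, Hist1h1a was -0.028 and -0.031, Hist3h2ba -0.038 and -0.044, Hist2h3b -0.076 and -0.081, Npat 0.0058 and 0.0058, and H1f0 -0.0065 and -0.021. Slbp was -0.0097 on unstranded counts. Leaving out each library in turn gave Hist1h1c -0.058 to 0.51, Hist1h1e -0.10 to 0.32, Hist1h1a -0.11 to 0.12, Hist3h2a -0.0014 to 0.13, Hist3h2ba -0.10 to 0.18, Hist2h2be -0.033 to 0.29, Hist2h3b -0.15 to 0.30, Hist1h2bj -0.66 to 0.14, Hist1h3b -1.55 to 0.20, Slbp -0.055 to 0.053, H3f3b -0.035 to 0.12 and H1f0 -0.11 to 0.16.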
